A study of Homo sapiens with 8 samples.

Results

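The aminoacyl-tRNA synthetases are the enzymes that join each amino acid to its transfer RNA, and 36 of their genes were followed here in MOLM13, a human acute myeloid leukemia cell line. The genes were taken by symbol from a list of the enzyme family, without a cut on measured values. The list itself was chosen with earlier results of these data known. Each of the 36 had a row among the 35370 rows of the expression table, and all 36 passed the filter on low values that left 13028 genes for testing. In the cytosol, 20 of them charge the transfer RNAs read by cytosolic ribosomes, and 16 encode enzymes that work inside mitochondria. The GARS and KARS genes, for glycine and lysine, supply both compartments.

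Charging is the step at which the genetic code is read chemically, since the ribosome does not check which amino acid a transfer RNA carries. Several cytosolic synthetases sit together in a large multi-synthetase complex held by the scaffold proteins AIMP1, AIMP2 and EEF1E1, while others, such as the tryptophan, tyrosine and phenylalanine enzymes, work outside it. Uncharged transfer RNA activates the kinase GCN2, and the transcription factor ATF4 downstream of it is known to raise many cytosolic synthetase genes. The tryptophan enzyme gene WARS is also a classical interferon-induced gene.

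The study compared 4 groups of MOLM13 cells, with 2 RNA sequencing libraries in each. The control group has the genotype label WT, and the knockdown group carries a short hairpin against IGF2BP2, an RNA-binding protein that recognises N6-methyladenosine in messenger RNA. In the rescue group IGF2BP2 was restored in knockdown cells, and the mutant rescue group received a mutant form of it. The sources used here give neither the hairpin nor the mutation, nor whether control and knockdown cells carried an empty rescue vector. Per the labels' protocols the cells were grown in RPMI-1640 with serum, infected with virus and, where selection was needed, treated with puromycin, and libraries were made from polyadenylated RNA. Nothing in the labels ties the 2 libraries of a group to separate cultures. The p-values therefore reflect library-to-library spread alone, some or all of which may be technical.

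Values are on the log2 scale on which the authors deposited them, Read depth is unknown. IGF2BP2 itself was at 10.94 and 10.89 in control, 10.24 and 10.25 in knockdown, 11.37 and 11.13 in rescue, and 11.03 and 10.68 in mutant rescue. It fell by 0.67 with knockdown (limma with Benjamini-Hochberg adjustment, adjusted p = 0.0147) and rose by 1.00 in rescue against knockdown (limma, adjusted p = 0.00324). The fall with knockdown was no longer called without control replicate 1 (limma, adjusted p = 0.0662), control replicate 2 (0.0754), knockdown replicate 1 (0.119) or knockdown replicate 2 (0.123). In mutant rescue IGF2BP2 was 0.61 above knockdown (limma, adjusted p = 0.0298), a call lost without knockdown replicate 1 (0.165) or 2 (0.191), with no filter (0.0669), quantile normalization (0.0641) or the 2 groups alone (0.0722). All 8 myeloid markers of the line passed the filter, at 8.24 to 13.49 in every library, and of 8 markers of other cell types only KRT8 passed it, the list lying between -2.09 and 5.54. Among the myeloid markers, CSF1R rose by 1.27 and PTPRC by 0.96 with knockdown while HOXA9 fell by 0.70 (limma, adjusted p = 0.00194, 0.00414 and 0.00389), and the part of such shifts in the results below was not tested. The SD of the difference between the 2 libraries of a group, over all genes tested, was 0.148 in knockdown, 0.212 in control, 0.233 in rescue and 0.303 in mutant rescue.

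With knockdown, 5 of the 36 synthetase genes fell and none rose. The 5 were FARSA and FARSB, the subunits of the cytosolic phenylalanine enzyme, WARS and WARS2, the cytosolic and mitochondrial tryptophan enzymes, and YARS, the cytosolic tyrosine enzyme. They make up 13.9% of the members, where 7.45% of all genes tested fell and 5.35% rose (limma, adjusted p under 0.05). At an unadjusted p under 0.05, 18 members were lower and 0 higher, beside 16% and 13% of all genes. The authors' deposited table had 15 members lower at an adjusted p under 0.05, against 13.4% of genes, and 0 higher, against 6.72% of genes. In bulk RNA, fewer cells of a type and less RNA per cell cannot be told apart.

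The small differences lay mostly to one side. The log2 change with knockdown was below 0 in 29 of 36 members (80.6%), where it was below 0 in 48.2% of all genes tested. Both knockdown libraries were under both control libraries for 25 members, or 69.4%, where the same held for 31.4% of all genes. NARS, the asparagine enzyme gene, was the 1 member with both knockdown libraries above both controls, where 32.7% of all genes were. The median change of the members was -0.27 beside 0.01 for all genes, and it was -0.26 over the 20 cytosolic and -0.28 over the 16 mitochondrial genes. The median is a description of these genes and carries no test. Which library was left out set the count of calls: 0 members were called without knockdown replicate 1 or 2, 2 without control replicate 2, 3 without control replicate 1 or either rescue library, and 9 without either mutant rescue library.

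**Figure D1:**
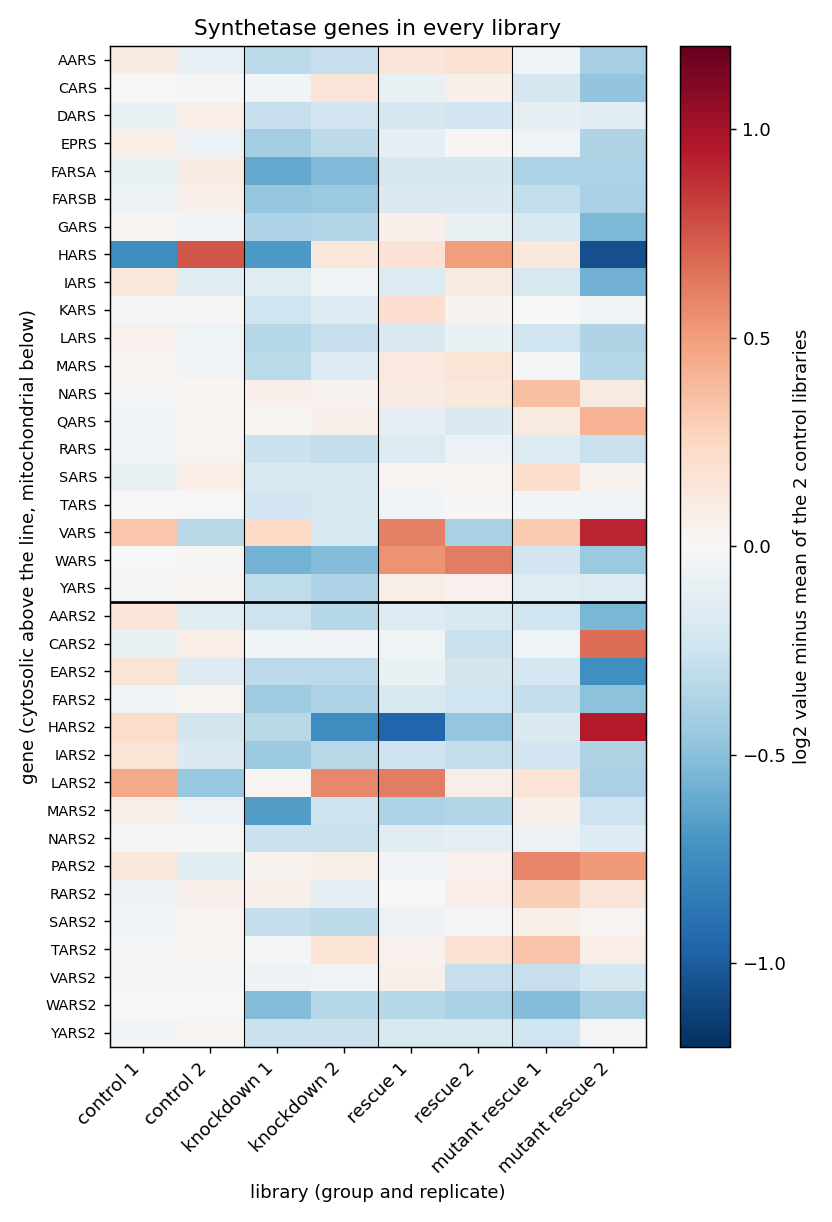
Each row is a synthetase gene and each column a library. The colour gives the log2 value minus the mean of the 2 control libraries, blue for lower and red for higher. The colour scale stops at a difference of 1.2. The knockdown columns are blue for most rows, with 29 of 36 group means below control, and the WARS row is red in both rescue libraries.

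In rescue against knockdown 2 members were called higher, WARS and YARS, and 0 lower. The calls are 5.56% of the members, where 3.22% of all genes tested rose and 1.02% fell (limma, adjusted p under 0.05). At an unadjusted p under 0.05, 11 members were higher and 0 lower, beside 11.5% and 8.16% of all genes. The authors' deposited table had 9 members higher, against 7.04% of genes, and 0 lower, against 3.08% of genes. Both rescue libraries lay above both knockdown libraries for 23 members (63.9%, beside 31.3% of all genes), and QARS, the glutamine enzyme gene, was the 1 member with both below (beside 26.9% of all genes). The median change was 0.13 beside 0.00 for all genes, and 0.25 over the cytosolic against 0.07 over the mitochondrial members. The 2 comparisons share the knockdown libraries, so a member low there tends to show in both. One member was called without knockdown replicate 1 or 2 or without either rescue library, and 4 without either mutant rescue library.

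The other comparisons held few member calls apart from mutant rescue against control. Mutant rescue against knockdown had 1 member higher, PARS2, the mitochondrial proline enzyme gene, and 0 lower, beside 5.58% and 5.72% of all genes (limma). At an unadjusted p under 0.05, 5 members (13.9%) were higher and 1 (2.78%) lower, beside 19.3% and 14.1% of all genes. The median change of the members was 0.14 beside 0.05 for all genes, and it was -0.07 under quantile normalization. Both mutant rescue libraries lay above both knockdown libraries for 18 members (50%, beside 37.1% of all genes) and below for 3 (8.33%, beside 25.9%). The authors' deposited table called 1 member higher and 0 lower, beside 4.37% and 3.5% of all genes. That member was HARS2, and PARS2 was not called there (adjusted p = 0.101). Rescue against mutant rescue had WARS higher and PARS2 lower, 2.78% of the members in each direction beside 5.9% and 4.61% of all genes. At an unadjusted p under 0.05, 6 members were higher and 3 lower there, beside 14.9% and 16.3% of all genes. The authors' deposited table called WARS higher and HARS2 lower, beside 3.68% and 3.98% of all genes. Rescue against control had WARS higher and 0 members lower, beside 4.91% and 2.27% of all genes. In that last comparison the unadjusted counts were 1 higher and 2 lower, beside 12.2% and 10.3% of all genes, and the authors' deposited table called 1 in each direction, beside 5.33% and 2.77%. Mutant rescue against control had 6 members lower, FARSA, FARSB, FARS2, WARS, WARS2 and LARS, beside 11% of all genes, and PARS2 higher, beside 13.9% of all genes. At an unadjusted p under 0.05, 13 members were lower and 3 higher, beside 18.3% and 21.1% of all genes. The authors' deposited table called PARS2 higher, beside 11.1% of all genes, and 0 members lower, beside 5.7%, with adjusted p values of 0.0946 to 0.255 for the 6 members named.

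These counts moved with single libraries. Against knockdown, mutant rescue had 4 member calls without mutant rescue replicate 1 and 0 without any other single library. Rescue against mutant rescue had 11 without mutant rescue replicate 1 and 1 without either knockdown library, either rescue library or mutant rescue replicate 2. Rescue against control had 0 without control replicate 1, control replicate 2 or rescue replicate 2. Mutant rescue against control had 17 without mutant rescue replicate 1, 1 without control replicate 2, 2 without either knockdown library, 3 without control replicate 1 or mutant rescue replicate 2, and 4 without either rescue library. Of the 18 member calls over the 6 comparisons, 2 were kept in each of the 8 fits that left out 1 library, and both belong to WARS.

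**Figure D2:**
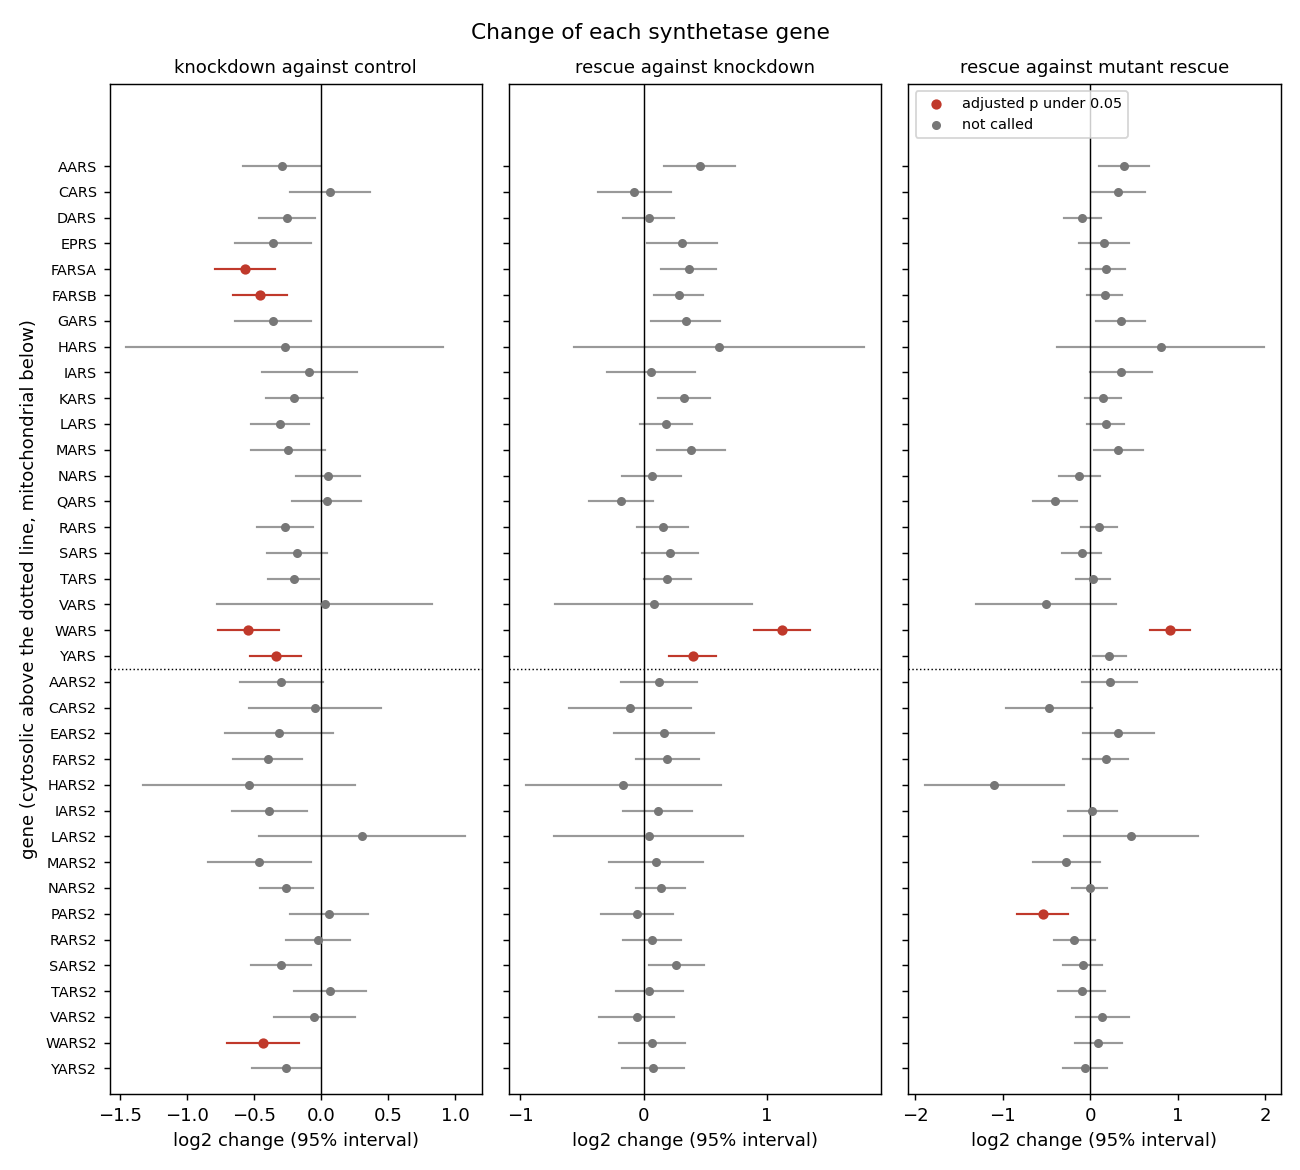
The horizontal axis is the log2 change with its 95% interval for knockdown against control, rescue against knockdown and rescue against mutant rescue, and each row is a synthetase gene. Red marks an adjusted p under 0.05. In the first panel 5 genes are red, all left of 0. In the other panels WARS stands farthest right among the red points, at 1.12 and 0.91.

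WARS encodes cytosolic tryptophanyl-tRNA synthetase, on the minus strand of chr14:100333788-100376805 (GRCh38, GENCODE v29). Its sequence just before the RefSeq start (listed there as WARS1), chr14:100376328-100376577 on the minus strand of GRCh38.p14, is shown because the only 2 member calls kept in every fit that left out 1 library belong to WARS. This stretch lies inside the GENCODE gene given above, whose start is farther upstream than the RefSeq start. The 250 bases read 5′ to 3′, with no capitals because none of the 4 motifs searched below lies in its window.
WARS promoter: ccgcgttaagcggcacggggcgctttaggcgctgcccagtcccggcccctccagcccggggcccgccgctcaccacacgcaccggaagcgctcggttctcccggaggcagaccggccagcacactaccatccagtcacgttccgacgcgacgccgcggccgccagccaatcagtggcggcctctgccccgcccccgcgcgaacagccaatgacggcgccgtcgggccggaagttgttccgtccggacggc

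WARS was at 12.29 and 12.30 in control, 11.72 and 11.78 in knockdown, 12.84 and 12.91 in rescue, and 12.07 and 11.85 in mutant rescue. The rescue libraries were the highest of the 8 and the knockdown libraries the lowest, and no 2 groups overlapped. WARS fell 1.46-fold with knockdown (log2 change -0.54, SE 0.10, limma, adjusted p = 0.0115). It rose 2.18-fold in rescue against knockdown (log2 change 1.12, SE 0.10, limma, adjusted p = 0.000275), which took it 0.58 above control (limma, adjusted p = 0.0104). Mutant rescue was 0.21 above knockdown, with a 95% interval from -0.02 to 0.44 (limma, adjusted p = 0.178), and 0.34 below control (limma, adjusted p = 0.0393). The difference between the 2 rescues was tested directly: WARS was 1.89-fold higher in rescue than in mutant rescue (log2 difference 0.91, SE 0.10, limma, adjusted p = 0.00148). In the authors' deposited table this difference was 1.08 with an adjusted p of 6.29e-06. The rescues also differed in mean IGF2BP2, at 11.249 in rescue and 10.855 in mutant rescue, and the part of this in WARS was not tested.

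Leaving out single libraries left the rescue differences of WARS called, at 1.09 to 1.16 over knockdown (largest limma adjusted p 0.00912) and 0.80 to 1.02 over mutant rescue (largest limma adjusted p 0.0218). The fall with knockdown was not called without control replicate 2 (limma, adjusted p = 0.0636), knockdown replicate 1 (0.128) or knockdown replicate 2 (0.113). The excess of rescue over control was not called without control replicate 1 (limma, adjusted p = 0.0561), control replicate 2 (0.0538) or rescue replicate 2 (0.0944). The deficit of mutant rescue was called in 1 of 8 such fits, the one without mutant rescue replicate 1. Its limma adjusted p was 0.111 and 0.115 without control replicate 1 and 2, 0.0896 without either knockdown library, 0.0592 without either rescue library, 0.143 without mutant rescue replicate 2 and 0.151 with the 2 groups alone.

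Interferon-stimulated genes moved in the same libraries. Of a list of 10, all 10 rose in rescue against knockdown (median log2 change 3.20), 7 rose in mutant rescue against knockdown (median 1.45), and 9 were higher in rescue than in mutant rescue. Of all genes tested, 3.22%, 5.58% and 5.9% were called higher in these comparisons, in the same order (limma). The mean of the list was 7.29 and 7.39 in control, 7.75 and 7.78 in knockdown, 11.24 and 11.32 in rescue, and 9.73 and 9.70 in mutant rescue. It was thus raised in both rescue groups, whereas WARS in mutant rescue lay between knockdown and control. The 3 list members not called in mutant rescue against knockdown were IRF1, GBP1 and GBP2. IRF1, a transcription factor induced by interferon gamma, was at 8.85 and 8.87 in control, 9.001 and 9.09 in knockdown, 10.52 and 10.43 in rescue, and 8.67 and 8.78 in mutant rescue. IRF1 rose by 1.43 in rescue against knockdown (limma, adjusted p = 5.21e-05) and differed by -0.32 in mutant rescue against knockdown (limma, adjusted p = 0.0705).

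GBP1, a guanylate-binding protein gene, had low values. They were 3.466 and 3.473 in control, 3.498 and 3.477 in knockdown, 4.332 and 4.424 in rescue, and 3.557 and 3.637 in mutant rescue. The values of low genes lie close together, so changes of GBP1 are understated here. In the authors' deposited table they were 6.97 and 3.454 in the same comparisons, the second not called. On the scale used here GBP1 changed by 0.89 in rescue and 0.11 in mutant rescue against knockdown (limma, adjusted p = 2.97e-05 and 0.209). IFIT3, an antiviral protein gene, rose by 6.61 and 4.01 (limma, adjusted p = 2.29e-08 and 1.23e-06), and OAS1, which makes the activator of RNase L, by 4.71 and 3.24 (limma, adjusted p = 5.66e-08 and 2.05e-06). With knockdown the list went the other way from WARS: 4 of 10 rose and none fell (limma), beside 5.35% and 7.45% of all genes. Among these 4, OAS1 rose by 1.02 (limma, adjusted p = 0.00179). The other 3, IFIT3, IFI6 and GBP2, were not called without control replicate 1 (limma, adjusted p = 0.0688, 0.102 and 0.116), knockdown replicate 1 (0.114, 0.199 and 0.160) or knockdown replicate 2 (0.130, 0.134 and 0.160), nor were IFI6 and GBP2 without control replicate 2 (0.148 and 0.0960). The rise of GBP2 in rescue against knockdown was called without either mutant rescue library and lost without any other, at limma adjusted p 0.0645 to 0.253. The part of the interferon-stimulated genes in the WARS values was not tested.

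**Figure D3:**
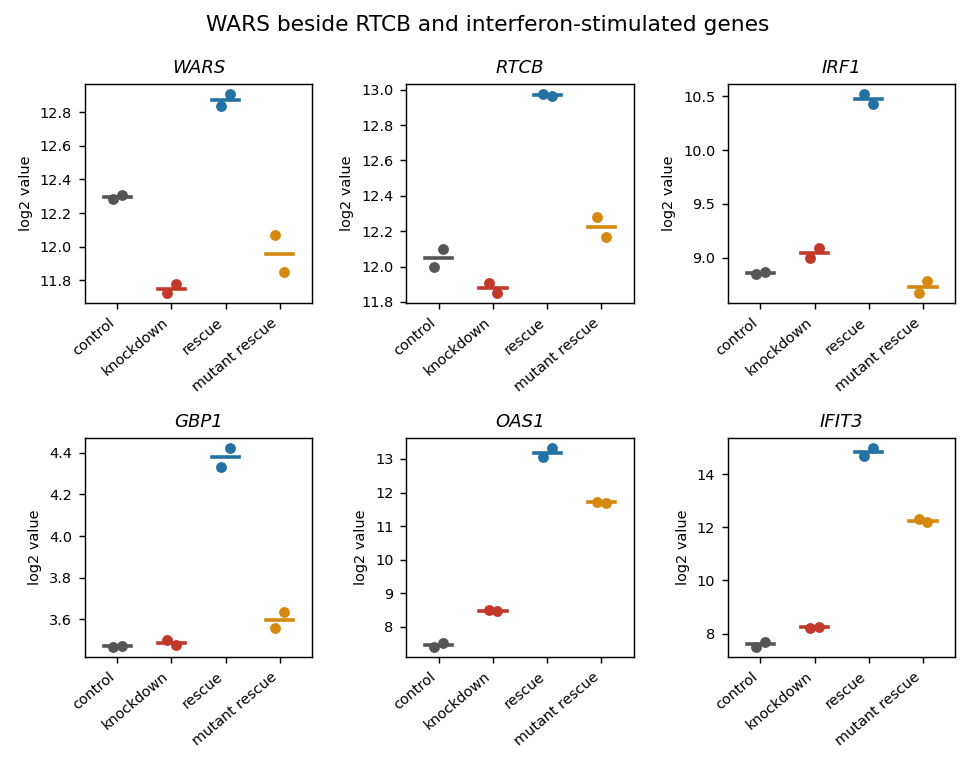
The panels show the log2 value of WARS, of RTCB and of 4 interferon-stimulated genes in each library (points) by group, with the group mean as a line. The vertical axis differs between panels. WARS, RTCB, IRF1 and GBP1 are highest in both rescue libraries, at 12.84 and 12.91 for WARS, while OAS1 and IFIT3 are also well above knockdown in mutant rescue.

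The mitochondrial tryptophan enzyme gene WARS2 was at 8.27 and 8.26 in control, 7.75 and 7.92 in knockdown, 7.92 and 7.88 in rescue, and 7.75 and 7.87 in mutant rescue. Both control libraries were above the other 6. WARS2 fell by 0.43 with knockdown (SE 0.12, limma, adjusted p = 0.0460) and was 0.46 under control in mutant rescue (limma, adjusted p = 0.0239). In rescue against knockdown it differed by 0.07, with a 95% interval from -0.20 to 0.33 (limma, adjusted p = 0.806). The fall of WARS2 with knockdown was called without either mutant rescue library and lost without any other single library, where the limma adjusted p was 0.131 and 0.160 without control replicate 1 and 2, 0.305 and 0.155 without knockdown replicate 1 and 2, and 0.0697 and 0.0698 without rescue replicate 1 and 2. The deficit in mutant rescue was lost without control replicate 1 (limma, adjusted p = 0.0979), control replicate 2 (0.0819) or mutant rescue replicate 1 (0.0528), and with the 2 groups alone (0.0812).

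The phenylalanine enzyme of the cytosol is built from alpha subunits, encoded by FARSA on chromosome 19, and beta subunits, encoded by FARSB on chromosome 2. Their sequences just before the RefSeq starts are shown because both subunit genes fell with knockdown. FARSA is shown at chr19:12933712-12933961 and FARSB at chr2:222656093-222656342, each on the minus strand of GRCh38.p14. Both read 5′ to 3′, with no capitals because neither window holds any of the motifs searched. The FARSA stretch lies inside the GENCODE v29 gene (chr19:12922479-12934037), and the FARSB stretch overlaps its gene (chr2:222570536-222656337).
FARSA promoter: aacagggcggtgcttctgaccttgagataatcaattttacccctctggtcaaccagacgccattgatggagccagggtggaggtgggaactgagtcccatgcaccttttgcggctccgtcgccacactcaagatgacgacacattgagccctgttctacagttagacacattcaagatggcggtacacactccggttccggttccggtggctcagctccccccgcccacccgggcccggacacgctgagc
FARSB promoter: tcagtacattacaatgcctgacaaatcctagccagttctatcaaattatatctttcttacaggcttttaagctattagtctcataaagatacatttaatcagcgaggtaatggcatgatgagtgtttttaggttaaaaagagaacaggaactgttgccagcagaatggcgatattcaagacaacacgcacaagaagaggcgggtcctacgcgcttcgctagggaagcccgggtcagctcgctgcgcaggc

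FARSA was at 13.30 and 13.49 in control, 12.79 and 12.87 in knockdown, 13.20 and 13.19 in rescue, and 13.02 and 13.02 in mutant rescue. The 4 groups did not overlap, and knockdown was the lowest. FARSA fell 1.48-fold with knockdown (log2 change -0.57, SE 0.10, limma, adjusted p = 0.00925), the smallest adjusted p of any member in that comparison. It was 0.37 higher in rescue than in knockdown (limma, adjusted p = 0.0779) and 0.38 lower in mutant rescue than in control (limma, adjusted p = 0.0241). FARSB was at 11.91 and 12.03 in control, 11.51 and 11.52 in knockdown, 11.80 and 11.80 in rescue, and 11.68 and 11.59 in mutant rescue. The order of its groups was the same as for FARSA, again without overlap. FARSB fell 1.37-fold with knockdown (log2 change -0.46, SE 0.09, limma, adjusted p = 0.0146).

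FARSB was 0.28 higher in rescue than in knockdown (limma, adjusted p = 0.121) and 0.34 lower in mutant rescue than in control (limma, adjusted p = 0.0256). The authors' deposited table called both subunits higher in rescue than in knockdown, FARSA by 0.44 (adjusted p = 0.00145) and FARSB by 0.345 (0.0295). It called neither lower in mutant rescue than in control (0.115 and 0.182). Between the 2 rescues the difference was 0.17 for each subunit, with 95% intervals from -0.05 to 0.40 for FARSA and from -0.04 to 0.37 for FARSB. The fall with knockdown was lost without knockdown replicate 1 or 2 (limma, adjusted p = 0.120 and 0.0945 for FARSA, 0.142 and 0.141 for FARSB) and, for FARSB, without control replicate 2 (0.0767). The deficit in mutant rescue was lost without control replicate 2 (limma, adjusted p = 0.0937 for FARSA, 0.0974 for FARSB), without either knockdown library (0.0632 and 0.0633, and 0.0686 for both) or without mutant rescue replicate 2 (0.0530 and 0.0801), and with the 2 groups alone (0.129 and 0.133).

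FARS2 encodes the single-chain phenylalanine enzyme of mitochondria. It was at 8.96 and 9.03 in control, 8.57 and 8.61 in knockdown, 8.81 and 8.75 in rescue, and 8.71 and 8.50 in mutant rescue. Knockdown lay under control by 0.40 (SE 0.11) just outside the threshold (limma, adjusted p = 0.0503), and mutant rescue was 0.39 under control (limma, adjusted p = 0.0365). The mutant rescue libraries enclosed both knockdown values, and the rescue libraries were between knockdown and control. The call was kept without mutant rescue replicate 1 and lost in the other 7 fits, at limma adjusted p 0.0962 and 0.134 without control replicate 1 and 2, 0.0782 and 0.0784 without knockdown replicate 1 and 2, 0.0532 and 0.0533 without rescue replicate 1 and 2, and 0.127 without mutant rescue replicate 2. It was also lost with no filter (0.0585) and with the 2 groups alone (0.123).

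YARS, the cytosolic tyrosine enzyme gene on chromosome 1, was at 12.01 and 12.06 in control, 11.73 and 11.66 in knockdown, 12.11 and 12.08 in rescue, and 11.89 and 11.87 in mutant rescue. Rescue reached slightly above control, and mutant rescue lay between knockdown and control. YARS fell 1.26-fold with knockdown (log2 change -0.34, SE 0.08, limma, adjusted p = 0.0328) and rose 1.32-fold in rescue (log2 change 0.40, SE 0.08, limma, adjusted p = 0.0348). Rescue was above mutant rescue by 0.22, with a 95% interval from 0.03 to 0.41 and an adjusted p of 0.121 (limma). YARS2, its mitochondrial counterpart, differed by -0.26 with knockdown (limma, adjusted p = 0.158). The fall of YARS was lost without control replicate 1 or 2 (limma, adjusted p = 0.0635 and 0.123), knockdown replicate 1 or 2 (0.188 and 0.272) or rescue replicate 1 or 2 (0.0591 and 0.0592), and its rise without knockdown replicate 1 or 2 (0.240 and 0.352) or rescue replicate 1 or 2 (0.184 and 0.149). With no filter, median centring or quantile normalization neither YARS call passed (0.0539, 0.0536 and 0.126 with knockdown, 0.0575, 0.0765 and 0.156 in rescue).

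**Figure D4:**
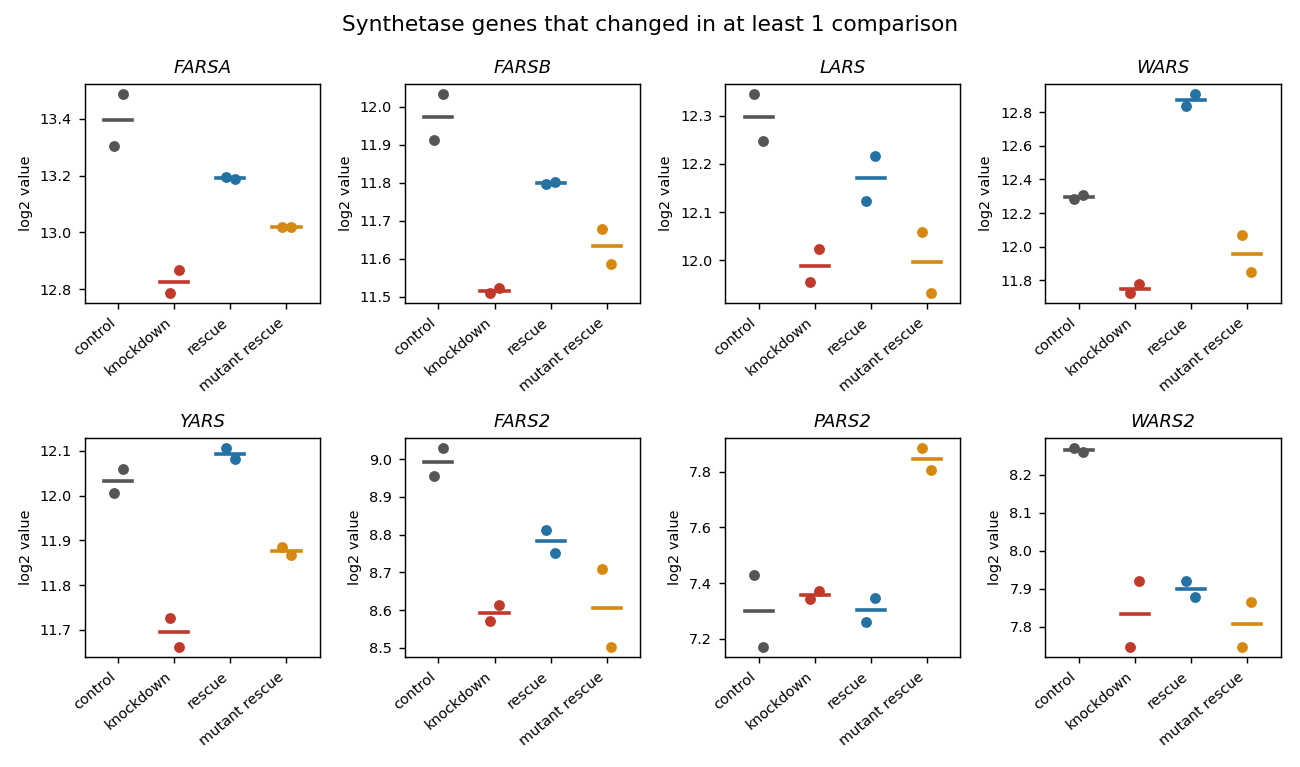
The panels show the log2 value of the 8 synthetase genes called by limma in at least 1 comparison. Points are libraries by group, with the group mean as a line. The vertical axis differs between panels. For FARSA, FARSB, WARS and YARS the knockdown libraries are the lowest, and for PARS2 the mutant rescue libraries are the highest, at 7.88 and 7.81.

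Of the 8 members called by limma in at least 1 comparison, 6 charge the aromatic amino acids tryptophan, phenylalanine and tyrosine. This grouping was seen only after the values were known. The other 2 were LARS and PARS2. The authors' deposited table called 15 members lower with knockdown. Among them were members outside this grouping, such as EPRS (adjusted p = 0.00285), GARS (0.00295) and IARS2 (0.00892). LARS, the cytosolic leucine enzyme that also reports leucine to the mTORC1 pathway, was at 12.35 and 12.25 in control, 11.95 and 12.02 in knockdown, 12.12 and 12.22 in rescue, and 12.06 and 11.93 in mutant rescue. Control was the highest group, and knockdown and mutant rescue overlapped. LARS was 0.30 under control in mutant rescue (SE 0.09, limma, adjusted p = 0.0475) and differed by -0.31 with knockdown (limma, adjusted p = 0.0666). Its call was lost with the 2 groups alone (limma, adjusted p = 0.178), and of the fits without 1 library it was kept in the one without mutant rescue replicate 1. In the others the limma adjusted p was 0.169 and 0.0718 without control replicate 1 and 2, 0.105 without either knockdown library, 0.0682 without either rescue library and 0.149 without mutant rescue replicate 2.

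PARS2 was the 1 member that limma called higher in mutant rescue. It was at 7.43 and 7.17 in control, 7.34 and 7.37 in knockdown, 7.26 and 7.35 in rescue, and 7.88 and 7.81 in mutant rescue. The mutant rescue libraries stood above the other 6, which overlapped one another. PARS2 was higher there than in control by 0.55 (SE 0.13, limma, adjusted p = 0.0172), than in knockdown by 0.49 (limma, adjusted p = 0.0454) and lower in rescue than in mutant rescue by 0.54 (limma, adjusted p = 0.0343). The difference from control was lost without control replicate 2 (limma, adjusted p = 0.0930). The difference from knockdown was lost in all 8 fits that left out 1 library, at limma adjusted p between 0.0501 and 0.245, and with no filter (0.0674), median centring (0.0634) or quantile normalization (0.0698). In the authors' deposited table the adjusted p was 0.101 against knockdown, 0.0602 between the rescues and 0.0430 against control. The difference between the rescues was lost without either knockdown library (limma, adjusted p = 0.0787), rescue replicate 1 or 2 (0.119 and 0.125) or mutant rescue replicate 2 (0.0653), and with the 2 groups alone all 3 differences were lost (0.0634 from control, 0.0795 from knockdown, 0.128 between the rescues).

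The 8 synthetase genes of the multi-synthetase complex, EPRS, IARS, LARS, MARS, QARS, RARS, KARS and DARS, had no call with knockdown by limma. Of all genes, 12.8% were called there in either direction. The authors' deposited table had 4 of the 8 lower, EPRS (adjusted p = 0.00285), LARS (0.0107), DARS (0.0407) and RARS (0.0446), beside 13.4% of all genes. In the limma fit their log2 changes ran from -0.36 for EPRS, the fused glutamate and proline enzyme, to 0.04 for QARS, with a median of -0.25 and a smallest adjusted p of 0.0666 (limma). The scaffold genes of the complex, a separate list, fell with knockdown in 3 of 3 cases, beside 7.45% of all genes. EEF1E1, also called AIMP3, was at 11.26 and 11.62 in control, 10.75 and 10.79 in knockdown, 10.95 and 10.90 in rescue, and 10.89 and 10.93 in mutant rescue. All 6 libraries with the hairpin were under both controls. EEF1E1 fell by 0.67 with knockdown (limma, adjusted p = 0.0109), AIMP1 by 0.37 (0.0401) and AIMP2 by 0.36 (0.0421). In rescue against knockdown they differed by 0.16, 0.12 and 0.22, none called.

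EEF1E1 was also under control in rescue, by 0.51 (limma, adjusted p = 0.0388), and in mutant rescue, by 0.53 (0.0147). The first was lost without control replicate 2 (0.141), either knockdown library (0.0933), rescue replicate 1 (0.116) or rescue replicate 2 (0.199), and the second without control replicate 2 (0.0522). Its fall with knockdown was lost without knockdown replicate 1 or 2 (limma, adjusted p = 0.111 and 0.0984). Those of AIMP1 and AIMP2 were lost without control replicate 2 (limma, adjusted p = 0.174 and 0.183), knockdown replicate 1 (0.226 and 0.233), knockdown replicate 2 (0.237 and 0.245), rescue replicate 1 (0.0661 and 0.0614) and rescue replicate 2 (0.0664 and 0.0613). They were also lost with no filter (0.0778 and 0.0795), median centring (0.0579 and 0.0581) or quantile normalization (0.0702 and 0.0862).

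The 28 members without a call by limma ranged with knockdown from -0.54 for HARS2 to 0.30 for LARS2. The smallest limma adjusted p was 0.0743, for IARS2. In rescue against knockdown they ranged from -0.18 for QARS to 0.61 for HARS, and in rescue against mutant rescue from -1.10 for HARS2 to 0.80 for HARS. The smallest adjusted p values there were 0.0880 for AARS and 0.0543 for QARS (limma). AARS, the alanine enzyme gene, was at 12.03 and 11.84 in control, 11.62 and 11.66 in knockdown, 12.08 and 12.11 in rescue, and 11.88 and 11.54 in mutant rescue. Its rescue libraries were the highest, and its mutant rescue libraries enclosed the knockdown values. The authors' deposited table called AARS lower with knockdown (-0.40, adjusted p = 0.0236) and higher in rescue against knockdown (0.55, 5.09e-05). QARS went the other way and was highest in mutant rescue, at 10.64 and 10.94, beside 10.41 and 10.36 in rescue. SARS2, the mitochondrial serine enzyme gene, had the smallest adjusted p among them in mutant rescue against knockdown, at a difference of 0.35 (limma, adjusted p = 0.0529), and 42.0% of its distinct words of 31 bases also occur in transcripts of other genes.

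The wide extremes belong to a few genes whose replicates lay far apart. HARS, the cytosolic histidine enzyme gene, was at 8.81 and 10.30 in control, 8.87 and 9.70 in knockdown, 9.73 and 10.06 in rescue, and 9.68 and 8.50 in mutant rescue. Its largest gap in any group was 1.49, between the control libraries, and 0.177% of all genes tested had a greater largest gap. HARS2, the mitochondrial histidine enzyme gene, was at 7.56 and 7.12, 7.002 and 6.59, 6.39 and 6.87, and 7.17 and 8.29 in the same order. HARS2 had its largest gap, 1.12, in mutant rescue, and 0.883% of genes had a greater largest gap. It was called in no comparison by limma and in 4 in the authors' deposited table, where its log2 change was -1.002 with knockdown (adjusted p = 0.0378), 1.72 in mutant rescue against knockdown (0.00999), -2.05 in rescue against mutant rescue (0.00326) and -1.28 in rescue against control (0.0331). In 3 of the 4 groups the library with more HARS had less HARS2. The genes lie head to head on opposite strands of chromosome 5, at chr5:140673904-140691862 for HARS and chr5:140691426-140699318 for HARS2, and overlap by 437 bases, so reads from the overlap may be credited to either gene, and the sources used here do not give whether the authors counted by strand.

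VARS, the cytosolic valine enzyme gene, had a gap of 0.994 in rescue, at 10.66 and 9.67, and LARS2, the mitochondrial leucine enzyme gene, one of 0.915 in control, at 7.58 and 6.67. For such members a change of the size seen in FARSA was not detectable: the standard error of the knockdown change was 0.52 for HARS, where the median over the members was 0.12.

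The wider tRNA machinery showed larger changes than most synthetases in single genes. Of 12 genes for tRNA maturation and export, 2 fell with knockdown and none rose (limma), beside 7.45% and 5.35% of all genes. TRNT1, which adds the CCA tail to which amino acids are joined, was at 10.56 and 10.54 in control, 9.76 and 9.86 in knockdown, 10.13 and 10.09 in rescue, and 9.82 and 9.83 in mutant rescue. It fell by 0.74 with knockdown (limma, adjusted p = 0.00214) and was 0.73 under control in mutant rescue (0.00111). The fall with knockdown was at an adjusted p of 0.0502 without knockdown replicate 1. SSB, the La protein that protects the ends of new transfer RNAs, was at 12.06 and 12.26 in control, 11.55 and 11.50 in knockdown, 12.28 and 12.18 in rescue, and 11.84 and 12.01 in mutant rescue. SSB fell by 0.63 with knockdown (limma, adjusted p = 0.00887) and rose by 0.71 in rescue (limma, adjusted p = 0.00747). In mutant rescue it was 0.39 above knockdown (limma, adjusted p = 0.0483). That call was lost with no filter (0.0864), median centring (0.0876), quantile normalization (0.288), no trend (0.0588) or the 2 groups alone (0.0787). It was also lost with the 10 ppm filter (0.0522), and was absent from the authors' deposited table (adjusted p = 0.0919). Of the 8 fits that left out 1 library, it was kept in 2.

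For SSB the fall was lost without control replicate 2 (limma, adjusted p = 0.0556), knockdown replicate 1 (0.0911) or knockdown replicate 2 (0.109), and the rise without knockdown replicate 1 (0.0852), knockdown replicate 2 (0.116) or rescue replicate 1 (0.0745). RTCB, the ligase that joins the exons of spliced transfer RNAs, was at 12.00 and 12.10 in control, 11.91 and 11.85 in knockdown, 12.98 and 12.96 in rescue, and 12.28 and 12.17 in mutant rescue. The rescue libraries stood above the other 6, as they did for WARS. RTCB rose by 1.09 in rescue against knockdown (limma, adjusted p = 0.000177) and was 0.75 higher in rescue than in mutant rescue (limma, adjusted p = 0.00259). In mutant rescue RTCB was 0.345 above knockdown (limma, adjusted p = 0.0460). That call was lost with no filter (0.0733), median centring (0.110), quantile normalization (0.450), no trend (0.0548) or the 2 groups alone (0.0827). It was absent from the authors' deposited table (adjusted p = 0.145). Of the 8 fits that left out 1 library, it was kept in 0. Unlike for WARS, the difference of knockdown from control was not called (-0.17, limma, adjusted p = 0.259), and a difference of this contrast between the genes was not tested.

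Among the partners of mitochondrial charging QRSL1, GATB, GATC and MTFMT, none was called with knockdown or in rescue against knockdown (limma). Of all genes, 12.8% and 4.24% were called there in either direction. GATC, a subunit of the enzyme that makes glutaminyl-tRNA in mitochondria, fell by 0.45 in mutant rescue against knockdown (limma, adjusted p = 0.0402), beside 5.72% of all genes. Of the fits that left out 1 library that call was kept in the one without mutant rescue replicate 1, and in the other 7 the limma adjusted p ran from 0.0547 to 0.213. GATC was at 9.98 and 9.99 in control, 9.85 and 9.78 in knockdown, 9.47 and 9.38 in rescue, and 9.49 and 9.24 in mutant rescue, so both rescue groups lay under both other groups. Against control it was lower by 0.62 in mutant rescue (limma, adjusted p = 0.00545), a call kept in all 8 such fits, and by 0.56 in rescue (0.0190), a call kept in 2 of 8, those without either mutant rescue library. Of 5 genes for selenocysteine and for editing of mischarged transfer RNA, 1 fell with knockdown and 0 rose (limma), beside 7.45% and 5.35% of all genes. That 1 was DTD1, a deacylase that frees transfer RNA of D-amino acids, which fell by 0.45 (limma, adjusted p = 0.0303). It was lost without control replicate 2 (0.153), knockdown replicate 1 (0.233) or knockdown replicate 2 (0.139), and with no filter (0.0587). DTD2, the other deacylase of the list, was at 8.52 and 8.45 in control, 8.01 and 8.14 in knockdown, 8.02 and 7.92 in rescue, and 7.71 and 7.57 in mutant rescue. Control was the highest group and mutant rescue the lowest. DTD2 was 0.85 under control in mutant rescue (SE 0.12, limma, adjusted p = 0.00187), a call kept in all 8 fits that left out 1 library and, at 0.000357, in the authors' deposited table. It was 0.51 under control in rescue (limma, adjusted p = 0.0370, kept in 2 of 8, those without either mutant rescue library) and differed by -0.41 with knockdown (0.0570).

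The genes known to answer ATF4 did not move as one. Of 14, with knockdown 1 rose and 3 fell (limma), beside 5.35% and 7.45% of all genes. None was called in rescue against knockdown, mutant rescue against knockdown or rescue against mutant rescue (limma). Of all genes, 4.24%, 11.3% and 10.5% were called there in either direction. SLC7A11, the cystine transporter, rose by 0.75 (limma, adjusted p = 0.00429). PSAT1, of serine synthesis, fell by 0.51 (limma, adjusted p = 0.0212), ASNS, asparagine synthetase, by 0.50 (0.0221), and TRIB3 by 0.47 (0.0481). Each of these 4 calls was lost without knockdown replicate 1 (limma, adjusted p = 0.0600, 0.135, 0.140 and 0.259 in that order) or knockdown replicate 2 (0.0718, 0.177, 0.182 and 0.201). The last 3 were also lost without control replicate 1 (0.0620, 0.0773 and 0.0916) or control replicate 2 (0.106, 0.0998 and 0.217). In mutant rescue against control SLC7A11 was higher by 0.62 (limma, adjusted p = 0.00444), PSAT1 lower by 0.64 (0.00455) and ASNS lower by 0.56 (0.00816), and each of these 3 calls was kept in all 8 fits that left out 1 library. ATF4 itself was at 9.76 and 9.87 in control and 9.45 and 9.56 in knockdown (limma, adjusted p = 0.345), a difference that the authors' deposited table gives as -0.44 with an adjusted p of 0.0488.

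Among 8 genes that sense uncharged transfer RNA or act on the kinases' target, 1 fell with knockdown and 0 rose (limma), beside 7.45% and 5.35% of all genes. That 1 was EIF2S1, the alpha subunit of initiation factor eIF2, which fell by 0.45 (limma, adjusted p = 0.0160) and was not called without control replicate 2 (0.0767), knockdown replicate 1 (0.130) or knockdown replicate 2 (0.158). EIF2AK4, which encodes GCN2, was at 8.64 and 8.62 in control and 8.63 and 8.55 in knockdown, a difference of -0.04 (limma, adjusted p = 0.832). EIF2AK2, the double-stranded RNA kinase and an interferon-stimulated gene, rose by 2.48 in rescue against knockdown (limma, adjusted p = 2.62e-06). It also rose by 1.17 in mutant rescue against knockdown (limma, adjusted p = 0.00103).

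Promoter windows, from 250 bases before to 50 after each RefSeq start (GRCh38.p14), were found for 30 of the 36 members and searched on both strands for 4 motifs. TGATGNAA, the composite site of ATF4 and C/EBP proteins, lay in 7 member windows and in 3.67% of all 27305 windows. The 7 are shown with the match in capitals, each as 30 bases 5′ to 3′ on the gene's strand, because no other motif searched lay in more member windows. A match on the opposite strand appears as its reverse complement.
AARS: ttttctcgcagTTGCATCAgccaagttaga
CARS: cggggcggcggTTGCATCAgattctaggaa
IARS: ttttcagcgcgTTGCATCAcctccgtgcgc
MARS: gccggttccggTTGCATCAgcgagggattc
NARS: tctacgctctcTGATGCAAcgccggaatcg
TARS: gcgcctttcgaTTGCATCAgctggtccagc
YARS2: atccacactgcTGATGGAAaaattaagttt
In 5 of these stretches, those of AARS, CARS, IARS, MARS and TARS, the letters are the same 8, TTGCATCA, and NARS has its reverse complement, TGATGCAA. None of the 7 genes was called by limma in any of the 6 comparisons, where 4.24% to 24.9% of all genes were. The authors' deposited table called AARS lower with knockdown (adjusted p = 0.0236), beside 13.4% of all genes. In rescue against knockdown it called AARS (5.09e-05) and MARS (0.00416) higher, beside 7.04% of all genes. The values that follow are from the limma fit. With knockdown they ranged from -0.29 to 0.06 (median -0.21, smallest adjusted p 0.147), and in rescue against mutant rescue from -0.12 to 0.38 (median 0.32, smallest adjusted p 0.0818).

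The other motifs were rarer among members. The core of the interferon-stimulated response element, which pairs GAAA repeats, lay in 1 member window, that of EARS2, and in 3.65% of all windows. The STAT site TTCCNGGAA lay in 1, that of WARS2, and in 1.22% of all windows. The MYC E-box CACGTG lay in 4, those of IARS, CARS2, EARS2 and MARS2, and in 7.43% of all windows. A match is a run of letters, not a site of binding. The windows cover 1 start per gene, and other starts of WARS were not searched.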

How the data were processed

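Polyadenylated RNA of 8 MOLM13 libraries was analysed, in 4 groups of 2 taken from the sample titles. One table was used, which per the file headers was written by HOMER's differential expression program. The submitters' processing notes list GRCh38 and the tools HOMER, kallisto and Trim Galore without versions or roles. Each library has a column of log2 values, normalized by the authors over all libraries before they were deposited. No counts were used, so depth is unknown and precision is that of 2 libraries per group. The authors' log2 changes and adjusted p-values are deposited beside them, and the sources used here do not give the model behind them. The values of low genes lie close together, so a change on this scale understates that of low genes. Other genes also had larger changes in the authors' deposited table. The member median with knockdown was -0.39 there beside -0.27 here, and WARS in rescue against knockdown was 1.35 beside 1.12. Fold values are taken from the scale used here.

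The deposited log2 values entered limma 3.58.1 (R 4.3.3) as they are: 1 model of 4 group means, 4 residual degrees of freedom, empirical Bayes with a mean trend, two-sided, Benjamini-Hochberg adjustment over 13028 genes. A gene entered the test if, in 2 or more libraries, it held 1 ppm or more of the summed linear values. A gene was called at an adjusted p under 0.05 in 6 comparisons, each pair of groups. The procedure was tested on simulated data. Library values are given for members called in at least 1 comparison, further members by range or as extremes named after their values were seen, and from each further list called genes of smallest adjusted p in the comparisons described. The members and lists were chosen with earlier results of these data known. GCN1 was not matched by symbol and is not analysed here, and some other list genes are not reported here. Alternatives were other filters and normalizations, no trend, 2-group fits, a replicate block, the authors' table and leaving out each library, where the lone library of a group is assumed to vary like the other groups. Levels are not compared between genes, since values are not per length. Promoters came from RefSeq (GRCh38.p14), matched by symbol.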

Additional observations from a re-analysis of the deposited data

How the results depend on the processing

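No result changed direction among the calls, and the settings moved how many members passed. The comparisons are numbered 1 knockdown against control, 2 rescue against knockdown, 3 mutant rescue against knockdown, 4 rescue against mutant rescue, 5 rescue against control and 6 mutant rescue against control. In that order 5, 2, 1, 2, 1 and 7 members were called of 1667, 553, 1472, 1370, 936 and 3241 genes. With no filter on low values, which left 24432 genes to adjust over, the member counts that moved were 3, 1, 0 and 4 in comparisons 1, 2, 3 and 6, and the gene counts that moved were 1070, 573, 777 and 610 in comparisons 1, 3, 4 and 5. A filter of 10 ppm moved the genes called in mutant rescue against knockdown to 849. Median centring gave 1 member in rescue against knockdown and 0 in mutant rescue against knockdown. Quantile normalization gave 1, 0 and 11 members in comparisons 2, 3 and 6 and 717 genes in comparison 3. The member median under quantile normalization was -0.180 with knockdown, 0.0482 in rescue, -0.0748 in mutant rescue against knockdown (0.14 in the main fit, so its sign turned) and -0.27 in mutant rescue against control. Without the variance trend mutant rescue against knockdown had 2 members. Fits on the 2 groups compared alone gave 9, 8, 0, 1 and 0 members in comparisons 1 to 4 and 6, with 2620, 1246, 279, 192 and 1793 genes. In the authors' deposited table the members called were 15, 9, 2 and 1 in comparisons 1, 2, 5 and 6, the genes 2615 and 1318 in comparisons 1 and 2, and the member medians -0.39 and 0.19. The cause of these shifts was not tested.

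Of the 18 member calls, 18 were kept under the 10 ppm filter, 17 without the trend, 15 each under median centring and quantile normalization, 11 with no filter, 10 in the authors' deposited table and 9 with the 2 groups alone. Scaling moved the split of higher and lower calls over all genes: from 420 and 133 to 328 and 210 in rescue against knockdown under quantile normalization, from 727 and 745 to 379 and 935 under median centring and 262 and 455 under quantile normalization in mutant rescue against knockdown, from 640 and 296 to 590 and 463 under quantile normalization in rescue against control, and from 1810 and 1431 to 1438 and 1890 under median centring in mutant rescue against control.

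Leaving out 1 library at a time gave 0 to 9, 1 to 4, 0 to 4, 1 to 11, 0 to 1 and 1 to 17 members in the 6 comparisons, and 179 to 2359, 176 to 864, 79 to 2800, 241 to 2871, 361 to 1422 and 1440 to 3952 genes. The member medians stayed between -0.27 and -0.24, 0.13 and 0.17, 0.07 and 0.18, 0.05 and 0.13, -0.11 and -0.0409, and -0.26 and -0.09.

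Replicate numbers are shared between groups but the labels do not say that they mark a culture or day. The correlation of the replicate differences between groups ran from -0.02 to 0.41. With the replicate number as a block, 1787, 592, 1802, 1765, 1010 and 3541 genes were called, and 16 of the 18 member calls were kept. The lost ones were WARS2 with knockdown (limma, adjusted p = 0.0506) and LARS in mutant rescue against control (0.0563).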
